A study of Mus musculus with 8 samples.

Results

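The Hox genes of the mouse encode homeodomain transcription factors and lie in 4 clusters, HoxA on chromosome 6, HoxB on chromosome 11, HoxC on chromosome 15 and HoxD on chromosome 2. H3K27me3, trimethylation of lysine 27 of histone H3, was examined here across these 4 clusters in morulae. The clusters were taken as 4 mm9 intervals: HoxA from 52100000 to 52220000 (120 kb), HoxB from 96050000 to 96230000 (180 kb), HoxC from 102750000 to 102870000 (120 kb) and HoxD from 74480000 to 74610000 (130 kb). They were chosen by gene family and not by any measured value, although earlier results of these data were known. The peaks in them are all peaks that share at least 1 base with an interval. The intervals hold the 38 Hox genes considered: 10 of HoxA, 10 of HoxB, 9 of HoxC and 9 of HoxD. Together they span 550 kb and held 48 of the 90158 peaks deposited for embryos given the mutant demethylase and 6 of the 4991 peaks deposited for embryos given the wild-type demethylase.

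Embryos came from eggs of B6D2F1/J (BDF1) females aged 8 weeks and were labelled BDF1xPWK, a hybrid of BDF1 mothers with PWK fathers, although the injection protocol speaks of BDF1 sperm. Zygotes received mRNA for Kdm6b, a demethylase that removes methyl groups from H3K27, either in its wild-type form (Kdm6bWT) or in a mutant form that the labels do not describe further (Kdm6bMUT). The mRNA solution held 1.8 µg/µl and was injected from 2.5 to 4 hours after fertilization. All embryos of both groups were injected. Each group has 1 ChIP library of morulae, made by ultra-low-input native ChIP and called against input, and the inputs carry a tag for no injection. The 8 samples of the series also include 4 blastocyst RNA libraries, which were not analysed here.

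Hox genes give cells their position along the body axis, and their order on the chromosome matches the order in which they act from head to tail. Polycomb repressive complex 2 deposits H3K27me3, and in embryonic stem cells and in embryos after implantation the Hox clusters are among its best-known targets, where the mark lies on the silent genes. Complex 2 is known to settle on CpG-rich DNA, which Hox promoters often contain. In the embryo before implantation much of the mark is inherited from the egg and forms broad domains outside these classical targets.

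The order of the genes, and the genes next to each cluster, were read from the RefSeq table of GRCm38.p6, a later build than that of the peaks. No gene was therefore placed on a peak, and positions inside a cluster are described from its low-coordinate and its high-coordinate end. In HoxA the order runs from Hoxa2, which patterns the hindbrain and the branchial arches, through Hoxa3, Hoxa4, Hoxa5, Hoxa6, Hoxa7, Hoxa9, Hoxa10 and Hoxa11 to Hoxa13, which acts in the digits and the genital tubercle, with Evx1 next on the high side. In the other clusters the order is turned. Genes are listed by the lowest coordinate of their annotation. HoxB runs from Hoxb13, a gene of the tail and the prostate, through Hoxb9, Hoxb8, Hoxb7, Hoxb6, Hoxb5, Hoxb3, Hoxb4 and Hoxb2 to Hoxb1, a hindbrain gene, between Ttll6 and Skap1. The place of Hoxb3 before Hoxb4, against the falling numbers, rests on this listing and is not taken as their true order. HoxC runs from Hoxc13, which is needed for hair and nails, through Hoxc12, Hoxc11, Hoxc10, Hoxc9, Hoxc8, Hoxc6 and Hoxc5 to Hoxc4, between Calcoco1 and Smug1. HoxD runs from Hoxd13, a digit gene, through Hoxd12, Hoxd11, Hoxd10, Hoxd9, Hoxd8, Hoxd3 and Hoxd4 to Hoxd1, between Evx2 and Mtx2. Here the place of Hoxd3 before Hoxd4 likewise rests on the lowest coordinate and is not taken as their true order.

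Sequences of 250 bases upstream of 3 members are given to show how far the CpG content at Hox starts can differ, since CpG-rich DNA is the known landing site of the complex. They come from RefSeq (GRCm38.p6), and their positions cannot be set against the mm9 peaks. Capitals mark the dinucleotide CG, which reads the same on both strands. Hoxa13 and Hoxa9 have the most and the fewest among HoxA genes with 1 listed start, and Hoxd13 the most among such HoxD genes.
Hoxa13 (GRCm38.p6, chr6:52260881-52261130, minus strand): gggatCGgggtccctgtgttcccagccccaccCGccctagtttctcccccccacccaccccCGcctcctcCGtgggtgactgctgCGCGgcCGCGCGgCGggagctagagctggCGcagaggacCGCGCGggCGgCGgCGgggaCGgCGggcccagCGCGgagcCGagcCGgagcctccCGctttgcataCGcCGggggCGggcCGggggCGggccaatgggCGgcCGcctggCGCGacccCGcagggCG
Hoxa9 (GRCm38.p6, chr6:52227371-52227620, minus strand): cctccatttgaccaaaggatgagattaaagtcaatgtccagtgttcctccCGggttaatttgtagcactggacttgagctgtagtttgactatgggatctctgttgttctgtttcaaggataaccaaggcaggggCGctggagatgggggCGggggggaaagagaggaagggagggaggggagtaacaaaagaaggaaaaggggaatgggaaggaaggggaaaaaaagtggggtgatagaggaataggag
Hoxd13 (GRCm38.p6, chr2:74667975-74668224, plus strand): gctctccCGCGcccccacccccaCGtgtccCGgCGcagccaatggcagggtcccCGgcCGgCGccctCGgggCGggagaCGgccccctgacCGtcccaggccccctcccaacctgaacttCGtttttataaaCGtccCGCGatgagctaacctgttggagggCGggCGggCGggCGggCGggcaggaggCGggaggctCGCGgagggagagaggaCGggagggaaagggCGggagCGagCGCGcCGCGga
The Hoxa13 sequence holds 35 CG and has a G+C content of 80.0%, the Hoxd13 sequence holds 31 with 74.4%, and the Hoxa9 sequence holds 3 with 49.6%. Of 32534 RefSeq promoter windows of the mouse, 92.2% hold at least 1 CG in the same 250 bases, with a median of 6. At least 35 CG occur in 3.00% of them and at least 31 in 5.24%, while 37.4% have no more than 3. Only 22 of the 38 members had a window in this table (57.9%), too few to compare CpG content over the members: such a check would be void and was not made.

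All 4 Hox clusters carried H3K27me3 peaks of the deposited list in Kdm6bMUT-injected morulae. HoxA stood first when all peaks were used, with 15 peaks that covered 43.2 kb or 36.0% of its interval. HoxC held 9 peaks over 17.8 kb (14.8%). HoxB held 14 peaks over 19.6 kb (10.9%), and HoxD 10 peaks over 14.0 kb (10.7%). HoxB and HoxD thus lay side by side and close to the 10.3% covered over the 19 autosomes together, and with 1 library per group neither the order of the clusters nor any difference between them can be tested against replicate error. With the Kdm6bMUT list shortened to the 4991 peaks of highest −log10 p, HoxA and HoxB held 0 peaks, and HoxC (0.446% covered) and HoxD (0.231%) kept 1 each.

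A cluster with a peak was not unusual in this list. At least 1 Kdm6bMUT peak was found in 52.0% of the 120109 autosomal windows of 120 kb (the length of HoxA and HoxC), in 59.1% of windows of 180 kb (HoxB) and in 53.3% of windows of 130 kb (HoxD). These windows began every 20 kb along the autosomes and left out the clusters themselves. By covered length, 10.6% of windows were covered at least as much as HoxA, 23.1% as much as HoxC, 27.4% as much as HoxD and 28.2% as much as HoxB. The median window of 120 kb had 0.348% of its bases in peaks, the upper quartile was 12.8%, and the 90th percentile was 37.6%. HoxA and HoxC therefore lay above the upper quartile of windows of their length, whereas HoxB and HoxD lay below theirs (13.6% and 13.0%) but above the medians of 1.04% and 0.493%. The windows were not matched for genes or base composition, whose part in these ranks was not tested.

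**Figure D1:**
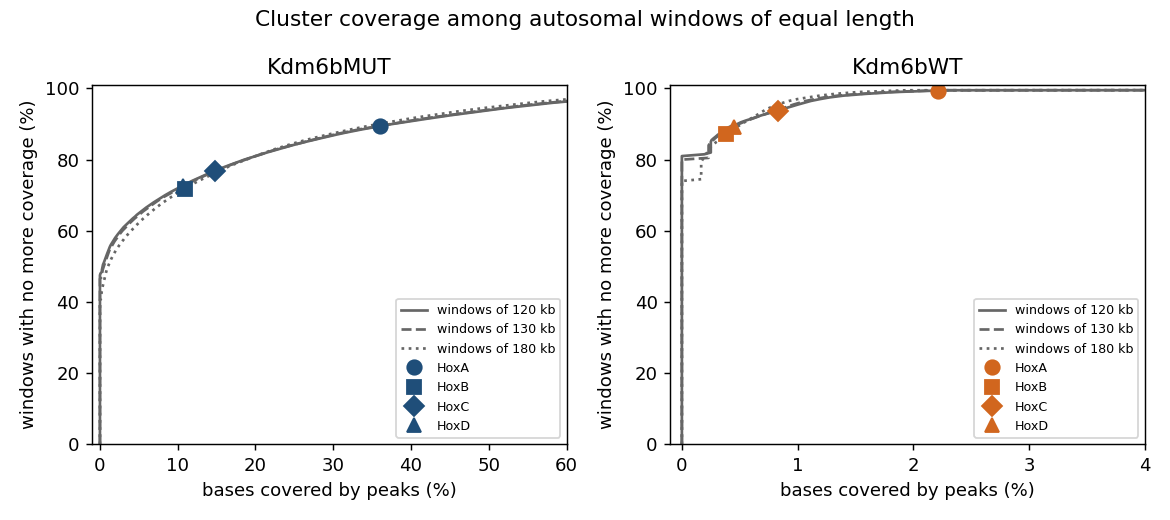
Share of autosomal windows (y axis, %) with no more than a given share of bases in peaks (x axis, %), for windows of 120, 130 and 180 kb (grey lines), with each cluster as a coloured mark at its own coverage. In the Kdm6bMUT list HoxA lies at 89.4% of windows, HoxC at 76.9%, HoxD at 72.6% and HoxB at 71.8%.

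HoxA was the most densely marked cluster and the only one with a peak of 10 kb or more. That peak spanned 12.6 kb (chr6:52126403-52139002) with a fold enrichment of ChIP over input of 3.14, a value as deposited by the authors. The next widest spanned 5.10 kb (chr6:52100032-52105127, fold 3.27) and 4.38 kb (chr6:52149210-52153586, fold 2.98). The highest score, 23, belonged to a 4.05 kb peak at chr6:52197076-52201128 (fold 3.38), followed by scores of 21 for the 5.10 kb peak and for a peak of 501 bases at chr6:52157138-52157638 (fold 3.21). The score is 10 times the −log10 of the peak's q, rounded down. Divided into 4 equal stretches of 30.0 kb from the low end, where Hoxa2 lies, HoxA was covered to 47.1%, 60.4%, 13.2% and 23.3%. The covered side was therefore the one of Hoxa2 and its neighbours, while the side of Hoxa13 held 3 peaks in each of its 2 stretches. The dense part did not stop at the interval's end: joined across gaps of less than 10 kb, 16 peaks formed a run of 87.7 kb (chr6:52069931-52157638), of which 57.6 kb lay in the interval and 56.6% was filled. The last peak outside the interval on this side ended 1.55 kb before it, and the first inside began 0.0310 kb after its start, so the given end of HoxA falls in a short gap within this run.

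HoxB carried scattered peaks. Its 14 peaks had a median width of 1396 bases, against 1582 for autosomal Kdm6bMUT peaks, and fold enrichments between 2.60 and 3.27. The widest one counted, 9.23 kb at chr11:96040817-96050049, lies almost wholly before the interval and has 49 bases in it. The widest inside were 4.00 kb (chr11:96185451-96189449, fold 3.27, score 20) and 2.63 kb (chr11:96148927-96151556, fold 3.03). Other high scores, of 19 each, belonged to chr11:96056475-96058641 and chr11:96191986-96193456. From the low end, on the side of Hoxb13, 4 stretches of 45.0 kb were covered to 9.36%, 4.15%, 13.3% and 16.7%. A gap of 48.8 kb without a peak (chr11:96069102-96117911) separated the first 5 peaks from the others, and the run of 5 peaks from 96181244 to 96200351 on the side of Hoxb1 was the longest run wholly inside the interval, 19.1 kb. Beyond position 96200351 no peak followed for 115 kb, so the final 29.6 kb of the interval were bare.

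HoxC was marked mainly on its low side. The stretches of 30.0 kb from the low end, where Hoxc13 lies, were covered to 35.2%, 22.8%, 1.21% and 0%. The last peak, of 363 bases (chr15:102812936-102813298), was also the last Kdm6bMUT peak on chromosome 15. It was the only peak in the 2 stretches on the side of Hoxc4. The widest peaks were 3.94 kb (chr15:102758637-102762577), 2.93 kb (chr15:102754253-102757178) and 2.60 kb (chr15:102793794-102796396). HoxC also had the highest fold enrichment in any of the clusters, 3.71 with a score of 26, in a peak of 535 bases at chr15:102782975-102783509, and the 3.94 kb peak reached 3.59 with a score of 24. The peak of 300 bases at chr15:102805306-102805605 had a fold of 3.51 and a score of 23.

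HoxD was an island of peaks, of median width 1379 bases, within bare sequence. Its first stretch of 32.5 kb, on the side of Evx2 and Hoxd13, had no peak, and the following ones were covered to 23.5%, 9.29% and 10.1%. The widest of its 10 peaks were 2.75 kb (chr2:74514426-74517174), 2.69 kb (chr2:74594287-74596975) and 2.40 kb (chr2:74561150-74563544), none as wide as 3 kb. A peak of 300 bases at chr2:74592663-74592962 had the highest score, 25, with a fold of 3.66, ahead of chr2:74521580-74521907 (score 20, fold 3.27). A score of 19 was shared by the 2.69 kb peak and by chr2:74537654-74539088. The covered end of a cluster was not the same across the family, since HoxA was covered more on the side of Hoxa2 and HoxC more on the side of Hoxc13.

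**Figure D2:**
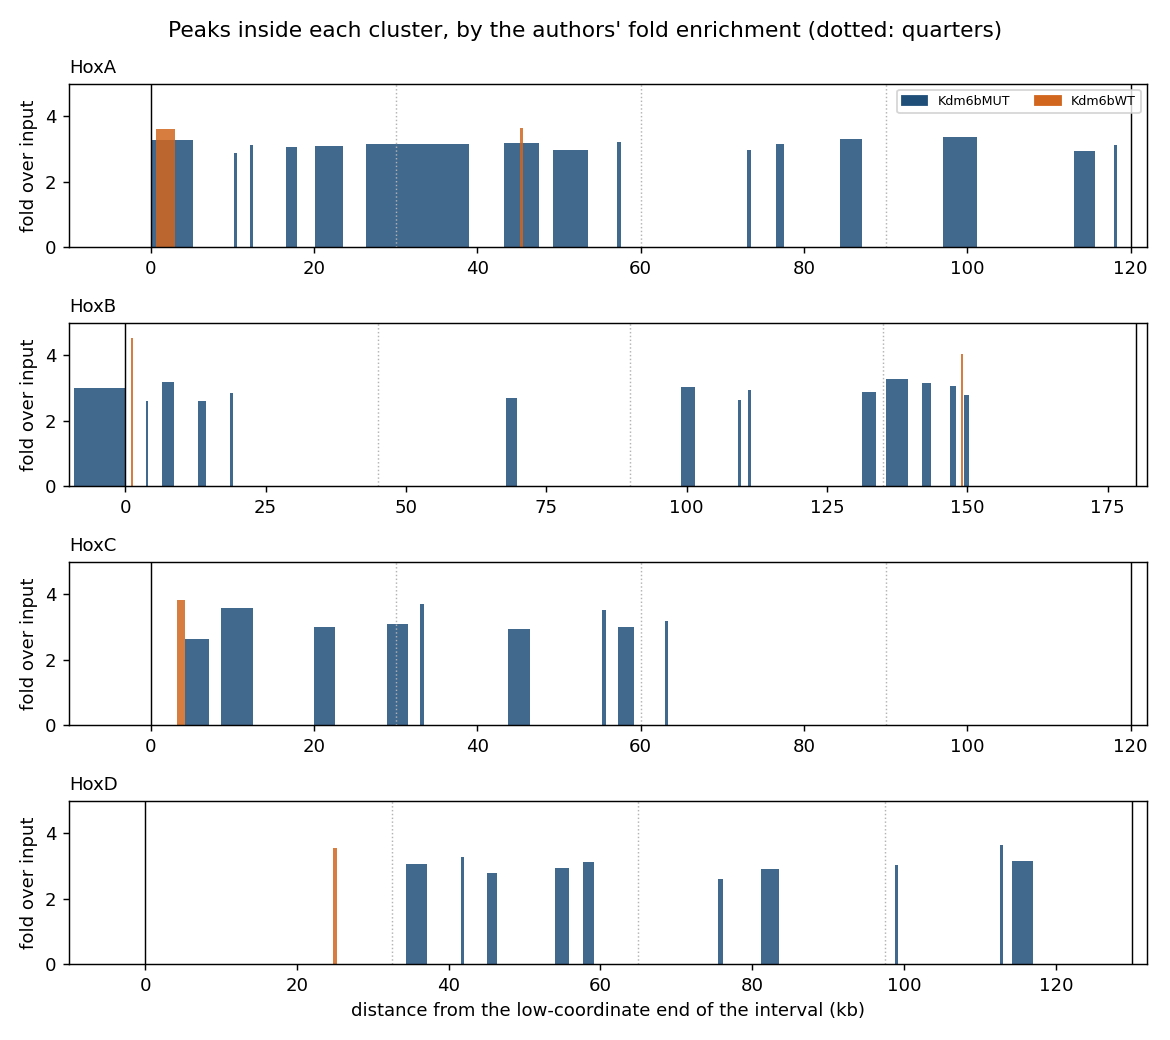
Peaks inside each cluster by distance from the low-coordinate end of the interval (x axis, kb) and the authors' fold enrichment over input (y axis), Kdm6bMUT in blue and Kdm6bWT in orange, with bars at least 0.4 kb wide and dotted lines between the 4 equal stretches. Blue bars crowd the first stretches of HoxA (47.1% and 60.4% covered), and the last stretch of HoxC and the first of HoxD hold none. Fold values are not comparable between the lists.

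Peaks in the clusters resembled other autosomal peaks of the Kdm6bMUT list in width and enrichment. The 48 cluster peaks had a median width of 1640 bases, between 300 and 12600, against 1582 bases for the 88804 autosomal peaks. Their median fold enrichment was 3.05 (lowest 2.60, highest 3.71) against 3.07, and their median score was 17.5 against 18.0. Above the autosomal median lay 23 of the 48 in fold and 24 in width, and above the upper quartile 6 and 9. Domains of 10 kb or more were 1 of the 48, against 4.28% of autosomal peaks.

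**Figure D3:**
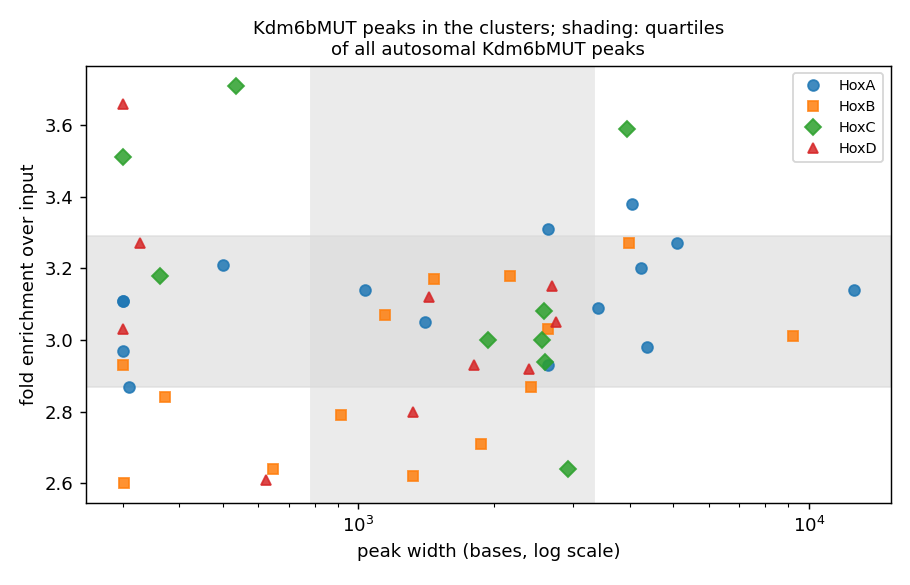
Width (x axis, bases, log scale) and fold enrichment over input (y axis) of the 48 Kdm6bMUT peaks in the clusters, 1 mark per peak, with shading between the quartiles of all autosomal Kdm6bMUT peaks (783 to 3328 bases and 2.87 to 3.29). The marks spread across the shaded bands, with a median fold of 2.90 in HoxB, 3.04 in HoxD, 3.08 in HoxC and 3.11 in HoxA, and 1 HoxA peak beyond 10 kb.

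Set against the 500 kb on either side, 3 clusters were covered more than their surroundings and HoxD less. In HoxC the contrast was steepest, with 14.8% inside and 0.255% outside, where only 2 peaks lay in the low flank, both within 50 kb of the cluster, and 0 in the high flank. In HoxB it was 10.9% against 2.61%, a ratio of 4.17, with 10 peaks in the low flank and 1 in the high flank. In HoxA it was 36.0% against 15.7%, a ratio of 2.30. Over the 4 clusters together peaks covered 17.2% of the intervals and 10.1% of the flanks. Without HoxA, the most covered cluster, the values were 11.9% and 8.30%. With flanks of 200 kb in place of 500 kb the surroundings were covered to 3.80%, since the densest flanking domains lay farther out. Among the 4991 Kdm6bMUT peaks with the highest −log10 p, only 2 lay in the clusters, which were then covered to 0.152% and their flanks to 0.372%, the opposite order. Whether the 500 kb past HoxC can all be mapped was not tested.

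In the Kdm6bMUT list the flanks of a cluster were unequal, and over the full 500 kb the low-coordinate one was the more covered in all 4. Some parts of the flanks went the other way. From 100 to 200 kb of HoxA the low side had 2.81% and the high side 6.13%. From 50 to 100 kb of HoxB they had 0.936% and 2.64%. For HoxA the low flank, towards Skap2, was covered to 29.2% by 39 peaks and the high flank, towards Evx1, to 2.14% by 5 peaks. Near HoxD this held only beyond 200 kb, since the nearer 200 kb had 0 on the low side and 1 peak on the high side. The first peak past HoxA on the high side began 99.8 kb beyond the interval. For HoxB the flanks had 4.96% and 0.264%, and for HoxC 0.509% and 0%. The widest flanking peak of HoxA, 24.7 kb (chr6:51599315-51623989), ended 476 kb before the interval. On the high side of HoxA the widest was 4.38 kb (chr6:52424620-52429002), and on that of HoxB the single peak was 1.32 kb (chr11:96315571-96316891).

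HoxD peaks lay far from any other peak, with dense peaks farther out on both sides. Its interval was covered to 10.7%, its low flank to 31.5% (30 peaks) and its high flank to 12.6% (29 peaks). The nearest Kdm6bMUT peaks lay 212 kb before and 156 kb after the interval, so the 10 HoxD peaks stood alone in a stretch otherwise without peaks. Between 200 and 500 kb from the interval, peaks covered 52.5% of the low side and 20.7% of the high side. The widest were 22.9 kb at chr2:74024078-74047017 (fold 3.34) and 6.07 kb at chr2:74979557-74985627 (fold 3.28). In later development long-range enhancers of HoxD genes are known to lie in the gene-poor regions on both sides of the cluster.

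**Figure D4:**
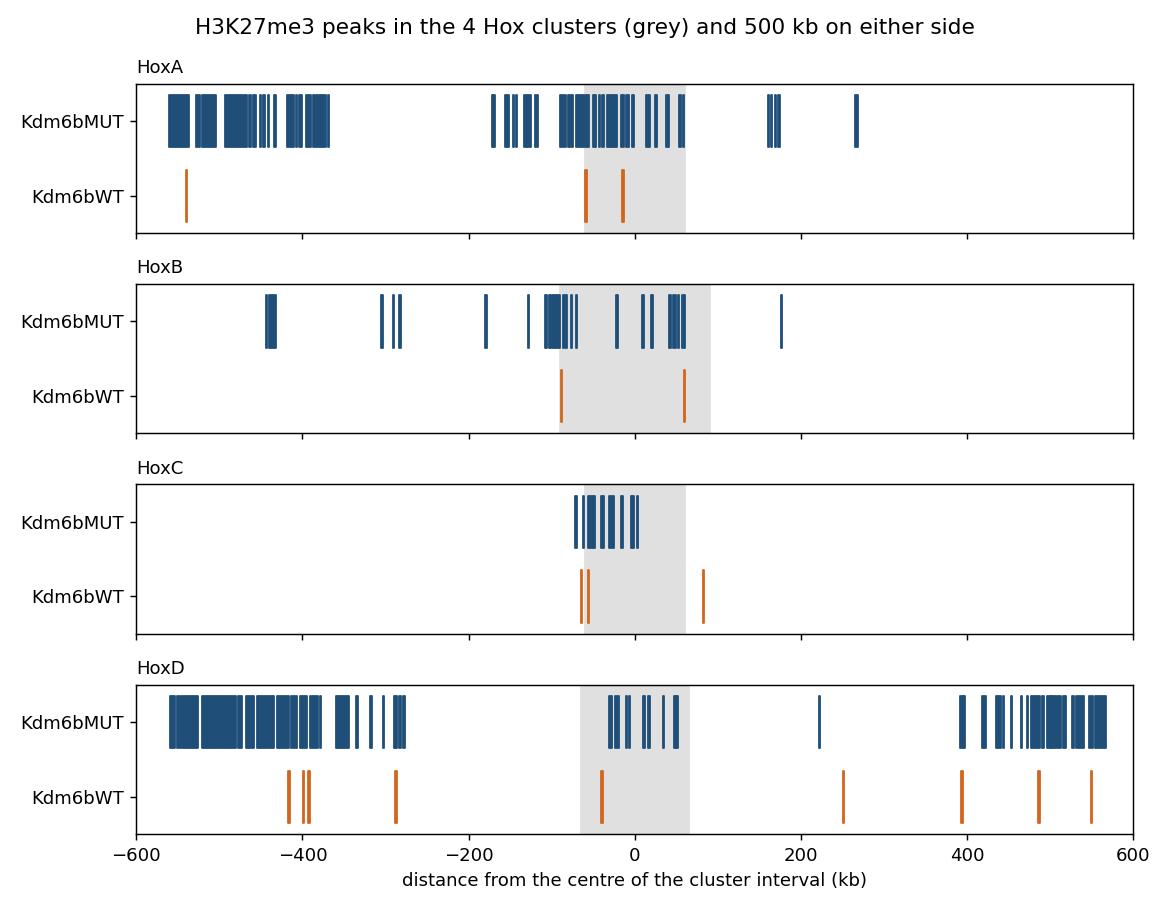
Positions of peaks in the 4 clusters (grey) and the 500 kb on either side, by distance from the centre of the interval (x axis, kb), with Kdm6bMUT peaks above and Kdm6bWT peaks below, drawn at least 1.5 kb wide. HoxC peaks end inside the cluster with none to the right in the Kdm6bMUT row, and HoxD sits between bare stretches of 212 and 156 kb.

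In Kdm6bWT-injected morulae few peaks were listed in the clusters, yet each cluster held at least 1. HoxA held 2, HoxB 2, HoxC 1 and HoxD 1, covering 2.66 kb, 0.690 kb, 0.998 kb and 0.582 kb. At least 1 Kdm6bWT peak was found in 18.6% of windows of 120 kb, 25.6% of those of 180 kb and 19.8% of those of 130 kb. Among windows that also held a Kdm6bMUT peak, as the clusters do, the shares were 28.6%, 35.7% and 30.0%. By covered length HoxA had 2.21% of its interval in Kdm6bWT peaks, which 0.559% of windows reached, HoxC had 0.832% (6.18% of windows), HoxD 0.448% (10.7%) and HoxB 0.383% (12.9%). HoxA and HoxC were thus the most covered clusters in both lists.

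Several of these peaks lay at the very ends of the intervals. The widest, 2.26 kb at chr6:52100692-52102952 (fold 3.61, score 10), began 0.691 kb into HoxA, and the peaks at chr11:96050939-96051238 (300 bases, fold 4.54, score 21) and chr15:102753182-102754179 (998 bases, fold 3.83, score 12) began 0.938 kb and 3.18 kb into HoxB and HoxC. When each interval was made 10 kb shorter at both ends, these 3 dropped out and 3 of the 6 stayed, which left HoxA with 1 peak and 0.395% covered and HoxC with 0. HoxD then had the highest Kdm6bWT coverage, 0.529%, so the order of the clusters in this list rested on peaks at the interval ends. The peaks that stayed were chr6:52145169-52145563 (395 bases, fold 3.63, score 11), chr11:96198916-96199305 (390 bases, fold 4.04, score 14) and chr2:74504766-74505347 (582 bases, fold 3.55, score 10). Their scores were low, with a median of 11.5 over all 6 against 13.0 for autosomal Kdm6bWT peaks, and at a score of 13 or more only the 2 HoxB peaks remained.

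The 2 HoxA peaks lay wholly inside Kdm6bMUT peaks, and the other 4 lay beside them. The gap to the nearest Kdm6bMUT peak was 73 bases in HoxC, 133 and 889 bases in HoxB, and 9.08 kb in HoxD. Touching a Kdm6bMUT peak were therefore 2 of the 6 (33.3%, 95% exact interval 4.33% to 77.7%), against 50.2% of autosomal Kdm6bWT peaks. From the other list, 2 of the 48 cluster peaks were touched (4.17%, 95% exact interval 0.509% to 14.3%), against 2.63% of autosomal Kdm6bMUT peaks. Both intervals hold the autosomal share and cover counting error only. They treat peaks as independent, although all touching peaks lay in HoxA, so they give no test against that share.

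The ratio of covered bases between the lists was lower in each cluster than over the autosomes when the whole intervals were used. Kdm6bMUT peaks covered 16.3 times as many bases as Kdm6bWT peaks in HoxA, 17.8 times in HoxC, 24.0 times in HoxD and 28.4 times in HoxB, against 73.3 times over the autosomes together. This did not hold for every cluster with intervals 10 kb shorter at both ends, where the ratio was 89.0 in HoxA, 43.8 in HoxB and 24.0 in HoxD, and HoxC had no Kdm6bWT peak. At a score of 13 or more, HoxA, HoxC and HoxD had none. The bases were called separately in each library, so the ratio moves with how much was called. Windows that hold peaks of both lists have low ratios by construction. Among them the median was 36.8 for 120 kb and 42.4 for 180 kb, and a ratio no higher than that of the cluster was found in 26.9% (HoxA), 28.8% (HoxC), 35.5% (HoxD) and 37.6% (HoxB) of them. The lists give no read depth, so a loss of the mark and a less deeply sequenced Kdm6bWT library cannot be told apart. At the lowest −log10 p of the Kdm6bWT list, 3.67, the Kdm6bMUT list still held 19 peaks in the clusters, 8 of them in HoxA, 4 in HoxC, 4 in HoxD and 3 in HoxB. With lists of equal length the order between the lists was the opposite, with 2 Kdm6bMUT peaks (0.152% covered) against 6 Kdm6bWT peaks (0.896%).

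The surroundings of the clusters held fewer Kdm6bWT peaks than the clusters for their length. Kdm6bWT peaks covered 0.896% of the intervals and 0.299% of the flanks. Intervals made 10 kb shorter at both ends were covered to 0.291%, no more than the flanks of the unchanged intervals. Around HoxB none was listed within 500 kb on either side, the nearest lying 894 kb before and 1119 kb after the interval. Around HoxA 1 lay in the low flank, 479 kb away, and around HoxC 1 lay in each flank, 4.59 kb before and 22.3 kb after the interval. Around HoxD the order was the other way, with 4 peaks in each flank that covered 0.932% and 1.02%, more than the 0.448% of the cluster, and with the nearest ones 222 kb and 186 kb away.

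**Figure D5:**
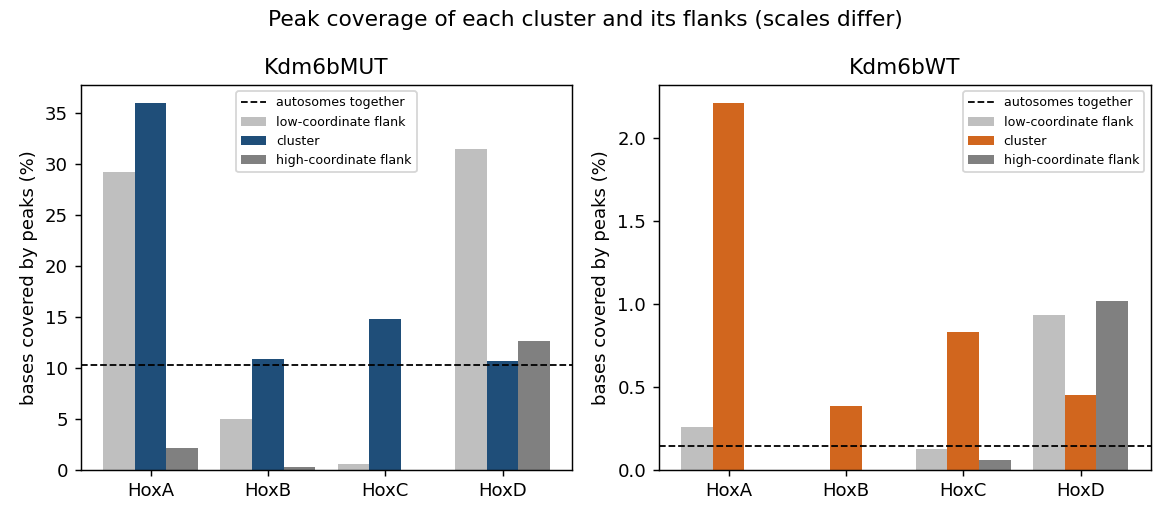
Share of bases in peaks (y axis, %) for each cluster (coloured), its low-coordinate flank (light grey) and its high-coordinate flank (dark grey), 500 kb each, with the autosomes together as a dashed line, for 1 Kdm6bMUT library (left) and 1 Kdm6bWT library (right, on its own scale). HoxD is the only cluster below both of its flanks, in either list.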

How the data were processed

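Peak lists of H3K27me3 ChIP-seq from 1 Kdm6bMUT and 1 Kdm6bWT library of morulae were read. Per the submitters' processing notes, tools of the series were MACS2, Bowtie2 2.2.2, Subread 1.5.1, featureCounts and STAR, listed without roles, and the build was mm9. The peak caller's settings were not given in the sources used here. The lists hold, as deposited by the authors, a fold enrichment (a ratio of ChIP over input), a −log10 p, a −log10 q and a score for each peak. The highest q was 0.0984 (Kdm6bMUT) and 0.0910 (Kdm6bWT). No read counts are given, so depth is unknown, and the lists do not separate parental alleles.

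Peaks, covered bases, gaps and runs were computed in Python 3.11.15 (pandas 2.3.3, numpy 2.4.6, scipy 1.17.1, matplotlib 3.10.9 for plots). Coverage code was tested on simulated data (200 of 200 windows recovered). Windows ran from the first to the last peak of each autosome in either list. All same-length windows were counted in place of random intervals. Named peaks were all those in a cluster or, above 8, the 3 widest and 3 highest-scoring, plus the nearest and widest flanking ones. Promoters printed were chosen after their CpG counts were seen. Each group has 1 library, which allows no test between groups. The members and lists were chosen with earlier results of these data known. Alternatives covered score, p, width, joining, interval ends, flank length and window choice.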

Additional observations from a re-analysis of the deposited data

How the results depend on the processing

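No paired analysis was possible because a group is a single library (1 each). Alternative settings gave 61 values: 33 lay within 1.5 times a reported count or inside the 95% exact interval of a reported share (over 1 kb units, or over windows that do not overlap), and 28 did not. These intervals treat neighbouring units as independent, although a peak can span many of them. They are thus a yardstick for the settings and no measure of error. A floor or minimum width removes peaks by its construction; for the rest the cause was not tested. With the lowest −log10 p of the Kdm6bWT list as floor, 19 Kdm6bMUT peaks lay in the clusters, with coverage of 8.72% in the clusters and 7.04% in the flanks. Peaks of 1 kb or wider numbered 31 (Kdm6bMUT) and 1 (Kdm6bWT). Joining across gaps below 5 kb gave 22 Kdm6bMUT peaks, with 29.9% and 14.6% covered in clusters and flanks. A score floor of 13 left 2 Kdm6bWT peaks, with 0.125% and 0.0867%. Intervals 10 kb shorter at both ends held 3 Kdm6bWT peaks (0.291% covered), and intervals 50 kb longer had 13.4% Kdm6bMUT coverage. Flanks of 200 kb had 3.80% (Kdm6bMUT) and 0.137% (Kdm6bWT). The share of windows with no more Kdm6bMUT coverage than the cluster, among windows with a peak within 500 kb, was 88.9% (HoxA), 70.7% (HoxB), 75.8% (HoxC) and 71.4% (HoxD), and on the same chromosome 87.7% (HoxA), 80.8% (HoxC) and 69.9% (HoxD). Settings chosen after seeing the data were 2. The first used lists of equal length, by p, and left 2 Kdm6bMUT peaks in the clusters, with 0.152% covered there and 0.372% in the flanks, so here the flanks were the more covered. The second left out HoxA, with 11.9% and 8.30%. Of the settings that gave both coverages, the others kept the clusters together more covered than their flanks in both lists. The shorter intervals gave a cluster value only. For Kdm6bWT it was 0.291%, against 0.299% in the flanks of the unchanged intervals.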

Other observations

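Parts of the clusters were bare, as was much of the autosomes in these lists. No Kdm6bMUT peak lay in 48.0% of autosomal windows of 120 kb, 46.7% of those of 130 kb and 40.9% of those of 180 kb. For Kdm6bWT these shares were 81.4%, 80.2% and 74.4%. Whether the bare stretches at the clusters are longer than others was not tested. In the Kdm6bMUT list the bare sequence after the last HoxC peak ran on to the end of the high flank, 557 kb away. The longest stretches closed by a peak on both sides that reached into the other clusters were 246 kb at HoxD (chr2:74268273-74514425), 115 kb at HoxB (chr11:96200352-96315570) and 102 kb at HoxA (chr6:52218261-52319812). In the Kdm6bWT list such stretches were 1152 kb at HoxA (chr6:52145564-53297718), 1150 kb at HoxB (chr11:96199306-97348907), 290 kb at HoxD (chr2:74505348-74795706) and 138 kb at HoxC (chr15:102754180-102892260). The Kdm6bWT peak at chr15:102892261-102892560 (300 bases, fold 4.24, score 16) was the only peak of either list on chromosome 15 beyond the last HoxC peak.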
